A study of Drosophila melanogaster with 2 samples.

Results

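The sites described here are places in introns, far from transcript starts, where the tagged fly protein CG10462 was found on chromatin. They are the summits of the combined peak list that lie inside an annotated gene, outside every exon, and more than 2000 bp from the nearest transcript start on either strand. Of 2993 summits, 548 met this positional rule (18.3%, 95% Wilson interval 17.0 to 19.7%), and they are called distant intron summits below. The remaining summits comprised 1603 within 500 bp of a start, called promoter summits, 401 in introns beyond 500 and up to 2000 bp from a start, called near intron summits, 366 intergenic and 75 exonic ones.

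The data come from chromatin immunoprecipitation and sequencing (ChIP-seq) with an antibody against GFP, on whole embryos of mixed sex aged 0 to 24 hours. The embryos were of a transgenic Drosophila melanogaster line that stably carries CG10462 with GFP fused to its C terminus, so the antibody recognises the tag and not CG10462 itself. There was 1 group of 2 biological replicates, numbered 2 and 3 by the submitters, and no comparison of conditions was possible. Whole embryos mix all cell types and a day of development, so the cells in which a site was bound cannot be told, and the control sample was not analysed here. Read counts are absent from the lists, so sequencing depth is unknown, and the intervals given cover only the sampling of peaks.

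Introns of developmental genes often hold enhancers, stretches of DNA that regulate a promoter from a distance. Transcription factors at such sites usually recognise short sequences, and proteins that follow open chromatin are found there as well. Regulatory DNA in flies lies both upstream of genes and within their introns, and the introns nearest the start of long genes are a common place for it. CG10462 has no named function in the annotation used here.

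Sequences reaching 50 bases to each side of the summit are shown for 11 of the 15 strongest distant intron summits, and for the 3 with the largest gap in rank among those with an entry in both replicates (Rbfox1, bun and CG14431). All are from the plus strand of the dm6 genome, 5′ to 3′, with the summit in the middle. Capitals mark the longest run of A and T only, or the first where runs tie, as at JIL-1 and CG32486. Their positions are Tlk chrX:3742166-3742266, Gug chr3L:8458292-8458392, Raf chrX:2297652-2297752, JIL-1 chr3L:11084723-11084823, trx chr3R:14283818-14283918, aos chr3L:16480500-16480600, CG32486 chr3L:3060743-3060843, simj chr3L:10682987-10683087, Hr4 chrX:1947709-1947809, fz chr3L:14304029-14304129, ImpL2 chr3L:4230472-4230572, Rbfox1 chr3L:10519063-10519163, bun chr2L:12487468-12487568 and CG14431 chrX:6937539-6937639.
Tlk: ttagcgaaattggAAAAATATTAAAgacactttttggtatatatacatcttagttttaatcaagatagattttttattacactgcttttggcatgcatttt
Gug: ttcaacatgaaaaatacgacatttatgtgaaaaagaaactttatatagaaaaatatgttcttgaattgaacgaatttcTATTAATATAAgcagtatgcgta
Raf: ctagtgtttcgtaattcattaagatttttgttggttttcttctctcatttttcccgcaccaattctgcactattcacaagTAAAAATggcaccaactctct
JIL-1: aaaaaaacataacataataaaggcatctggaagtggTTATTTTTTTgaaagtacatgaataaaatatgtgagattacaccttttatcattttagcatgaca
trx: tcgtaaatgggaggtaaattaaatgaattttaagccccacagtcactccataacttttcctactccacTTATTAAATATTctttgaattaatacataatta
aos: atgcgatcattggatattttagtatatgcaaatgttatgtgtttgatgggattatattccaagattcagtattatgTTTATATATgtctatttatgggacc
CG32486: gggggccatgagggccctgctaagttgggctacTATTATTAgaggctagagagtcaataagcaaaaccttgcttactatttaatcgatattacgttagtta
simj: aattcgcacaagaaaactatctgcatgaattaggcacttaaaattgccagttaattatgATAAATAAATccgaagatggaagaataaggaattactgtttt
Hr4: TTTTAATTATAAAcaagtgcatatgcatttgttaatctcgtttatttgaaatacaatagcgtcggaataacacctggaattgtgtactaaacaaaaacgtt
fz: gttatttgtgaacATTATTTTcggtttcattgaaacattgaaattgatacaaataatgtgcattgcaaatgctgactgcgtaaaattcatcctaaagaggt
ImpL2: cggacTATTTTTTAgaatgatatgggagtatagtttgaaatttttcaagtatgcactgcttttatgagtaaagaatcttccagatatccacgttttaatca
Rbfox1: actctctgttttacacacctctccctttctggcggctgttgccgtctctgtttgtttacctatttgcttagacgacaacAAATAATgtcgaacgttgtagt
bun: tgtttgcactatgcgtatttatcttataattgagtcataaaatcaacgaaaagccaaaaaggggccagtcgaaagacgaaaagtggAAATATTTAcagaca
CG14431: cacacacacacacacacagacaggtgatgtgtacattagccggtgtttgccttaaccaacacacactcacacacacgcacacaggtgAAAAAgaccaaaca
In the 11 strong sequences G and C made up 23.8% (Gug) to 41.6% (CG32486) of the bases, and the longest run of A and T had 7 (Raf) to 13 bases (Hr4). In the other 3, G and C made up 43.6% at Rbfox1, 34.7% at bun and 47.5% at CG14431, and the longest runs had 7, 9 and 5 bases. The bun sequence thus lay within the range of the strong ones and the other two above it.

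The strongest distant intron summit lay in Tlk, the gene for the chromatin assembly kinase Tousled-like kinase, on X at position 3742216. Its rank was 22 both in the combined list and in replicate 2 and 20 in replicate 3. Its signal was 568 for the pooled reads, 333 in replicate 2 and 235 in replicate 3. The signal is the authors' own value for a peak, in units that are not stated. Across members with an entry in both replicates the combined signal was close to the sum of the 2 replicate signals, with a median ratio of 1.00 and a range of 0.350 to 1.35. Only 5 of the 548 stood among the 100 strongest peaks of the combined list and 51 among the 500 strongest.

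Several of the 15 strongest lay in genes for chromatin and transcription regulators. Gug, which encodes the corepressor Atrophin, ranked 91, with 79 in replicate 2 and 128 in replicate 3. JIL-1, a histone H3 kinase gene, ranked 107, with 66 in replicate 2 and 216 in replicate 3. The histone methyltransferase gene trx (trithorax) ranked 113, with 86 and 170 in replicates 2 and 3. The rank of simj, which encodes a subunit of the nucleosome remodelling and deacetylase complex, was 138, with 190 in replicate 2 and 92 in replicate 3. All of these were among the strongest 250 in each replicate.

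Nuclear receptor genes held 2 of the 15. The summit in Hr4, a gene of the ecdysone response, ranked 181, with 206 in replicate 2 and 177 in replicate 3. The summit in Hr3, an ecdysone-response gene too, lay on 2R at position 10220054, where CG12912 and CG46321 overlap it, and ranked 77, with 94 in replicate 2 and 78 in replicate 3. Between them stood sbb (scribbler, a nuclear regulator of transcription), whose best summit ranked 128, with 47 in replicate 2 and 953 in replicate 3.

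Signalling genes made up another group among the 15. Raf, the kinase at the head of the MAP kinase cascade, ranked 93, with 144 in replicate 2 and 77 in replicate 3. The summit ranked 123 lay in aos (argos, a secreted inhibitor of the EGF receptor), which CG33158 overlaps, and ranked 108 in replicate 2 and 174 in replicate 3. The summit in fz (frizzled, a Wnt and planar polarity receptor) ranked 204, with 185 in replicate 2 and 272 in replicate 3, and lay 22172 bp from the nearest start. ImpL2, a secreted insulin-binding protein gene, ranked 244, with 253 in replicate 2 and 236 in replicate 3. The other 3 host genes were CG12769 (rank 36), CG32486 (rank 127) and Lrch, a leucine-rich repeat gene (rank 149, with 48 in replicate 2 and 484 in replicate 3). All 15 were among the strongest 2993 entries of both replicates.

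The rule has a sharp edge at 2000 bp. Just inside it lay summits 2002 bp from a start in hiw (highwire, a ubiquitin ligase gene, signal 98.5) and 2005 bp away in CG3764 (signal 93.1). Just outside it lay summits 1994 bp away in CG43658 (signal 74.3) and 1993 bp away in Ptp61F, a tyrosine phosphatase gene (signal 68.4).

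The 548 summits fell in 351 host genes, which is 8.10% of the 4333 genes that have any intron sequence meeting the rule. Below, such sequence is called eligible intron, and it amounted to 41.4 Mb, or 30.9% of the 134 Mb searched. A single host held 520 of the summits, 28 lay where genes overlap, and 539 lay in a protein-coding gene. Most hosts, 224 of 351, held 1 summit, 72 held 2, 28 held 3 and 27 held 4 or more. Of the 548, 170 (31.0%) lay within 5000 bp of another, the largest chain so linked held 5, and the median distance to the nearest other was 16915 bp.

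The hosts with the most distant intron summits were tara and kirre with 8 each, sbb with 7 and hth with 6. Raf, fz, ush, ed, cv-c and lncRNA:CR44357 held 5 each. The gene tara (taranis, a transcriptional regulator of the Trithorax group) packed its 8 into 25125 bp of eligible intron, or 318 per Mb, and 2 pairs of them lay within 214 bp and shared an entry in each replicate. In contrast kirre, a cell adhesion gene of muscle founder cells, spread its 8 over 287530 bp, or 27.8 per Mb. For sbb the value was 150 per Mb, and for Raf 204 per Mb. It was 121 per Mb for ush (u-shaped, a GATA cofactor) and 53.3 per Mb for hth (homothorax, a homeodomain cofactor of Hox proteins). The values were 60.7 per Mb for fz, 68.8 for the cell adhesion gene ed (echinoid), 76.1 for cv-c (crossveinless c) and 30.8 for lncRNA:CR44357. The best summits of these genes differed widely in strength, with a rank of 326 in tara, 336 in kirre, 486 in ush, 1157 in ed, 1245 in hth, 1326 in lncRNA:CR44357 and 2078 in cv-c.

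Hosts more often had a promoter summit of their own than genes with eligible intron but no summit in it. A start with a summit within 500 bp was found in 112 of 351 hosts (31.9%, interval 27.2 to 37.0%), against 703 of 3982 other such genes (17.7%, 16.5 to 18.9%). Long genes are hosts more often, so the genes were also split by their eligible intron. Among genes with over 50000 bp of it, 22 of 62 hosts (35.5%, 24.7 to 47.9%) and 8 of 107 others (7.48%, 3.84 to 14.1%) had a promoter summit. The shares were 33.0% and 13.7% at 20001 to 50000 bp, and 31.2% and 15.2% at 5001 to 20000 bp, with intervals that did not overlap. Up to 5000 bp they were 26.9% (16.8 to 40.3%) for hosts and 19.1% (17.7 to 20.6%) for others, with intervals that did. Of the hosts with the most distant intron summits, tara, sbb and ush had a promoter summit. The others, kirre, hth, Raf, fz, ed, cv-c and lncRNA:CR44357, had none. Among the hosts of the 15 strongest distant intron summits, only aos and sbb had one, so the higher share did not extend to these.

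Distant intron summits thinned out with distance from a start, even beyond 2000 bp. There were 22.1 per Mb of intron at 2001 to 3000 bp (exact Poisson interval 18.3 to 26.5) and 20.4 at 3001 to 5000 bp (17.4 to 23.9). The density was 15.4 at 5001 to 10000 bp, 7.82 at 10001 to 20000 bp, and 3.93 (2.72 to 5.50) over 20000 bp. Near intron sequence, for comparison, held 45.1 per Mb beyond 500 and up to 1000 bp and 28.8 per Mb at 1001 to 2000 bp. All eligible intron together held 13.2 per Mb (12.2 to 14.4), against 7.53 (6.57 to 8.60) in intergenic sequence over 2000 bp from a start. The median distance to a start was 4981.5 bp at the summits and 8001 bp over eligible bases, and the farthest summit, in hth, was 47648 bp away.

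Introns that come first in a transcript held most of them. A first intron of some transcript held 349 of 548 summits (63.7%, 59.6 to 67.6%), although such introns made up 37.6% of eligible bases. That is 22.4 per Mb (20.1 to 24.9) in first introns, against 7.70 (6.67 to 8.85) in later introns. The gap was there at each distance, with 28.8 per Mb in first and 13.0 in later introns at 2001 to 5000 bp, 21.2 and 11.0 at 5001 to 10000 bp, and 13.4 and 3.51 beyond. Within both kinds of intron the density was lower over 10000 bp than up to 5000 bp from a start. By intron length, the density was 17.9 per Mb at 5001 to 10000 bp, 18.4 at 10001 to 20000 bp and 15.1 at 20001 to 50000 bp. It was lower in introns up to 5000 bp (8.43) and over 50000 bp (5.76). The intron around a summit had a median length of 14610 bp, and the nearest exon was 2906 bp away at the median and 13 bp at the least.

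**Figure D1:**
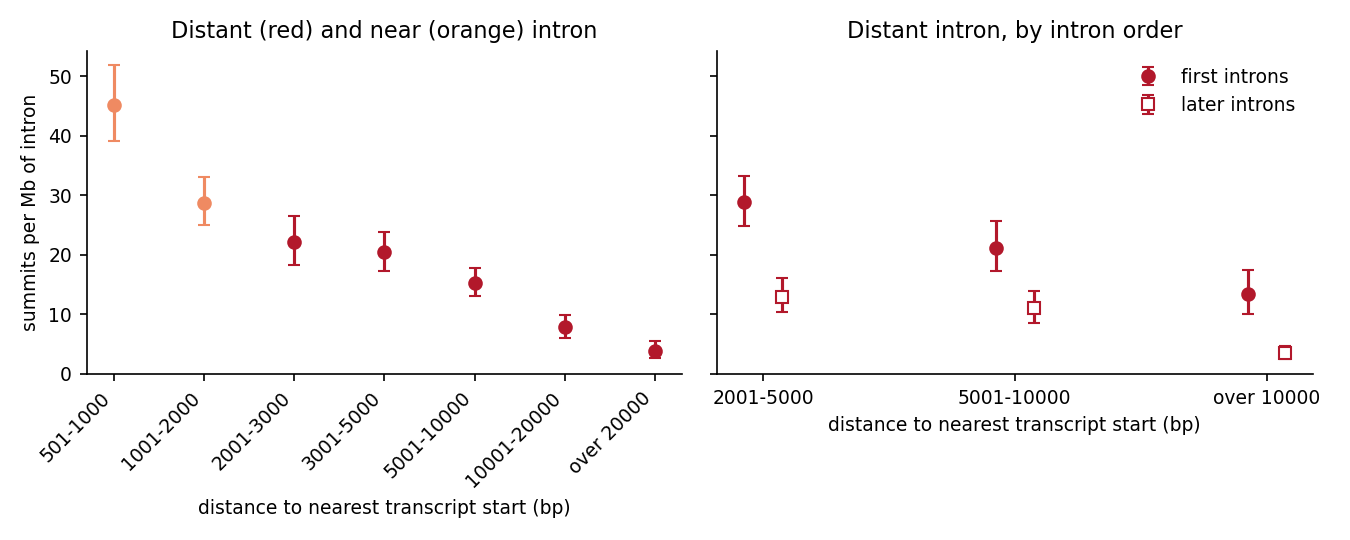
Summits per Mb of intron against distance to the nearest transcript start in bp, with exact 95% Poisson intervals; the left panel shows near intron (orange) and distant intron (red) summits, the right panel distant intron summits in first (filled) and later (open) introns. Density was 22.1 per Mb at 2001 to 3000 bp and 3.93 over 20000 bp, and first introns stood above later ones in each of the 3 distance bins.

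The large chromosome arms ranged from 10.9 to 16.1 per Mb. The density was 16.1 per Mb of eligible intron on X (13.5 to 19.2), 14.9 on 2L, 13.0 on 3L and 12.4 on 3R, and 10.9 on 2R (8.64 to 13.7). Chromosome 4 had no distant intron summit in 0.445 Mb, and that count allows up to 8.28 per Mb.

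Host genes were then described by 9 lists of genes with related roles, of which 590 of 608 entries matched a gene. Of the 351 hosts 109 were in a list and 242 in none. Since lists differ in how much of their intron lies near a start or comes first in a transcript, each count is given beside the number that its eligible intron would hold at the average density for its distance and intron order.

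The densest lists were those of signalling and of transcription factors. In the list of Wnt, Hedgehog, Dpp and Notch signalling, 15 of 44 genes with eligible intron were hosts, and they held 30 summits, against 10.6 at average density, or 41.9 per Mb (28.3 to 59.9). Its highest hosts were fz, N, mam and cv-2. N, the Notch receptor gene, ranked 305 with 320 in replicate 2 and 325 in replicate 3, and mam (mastermind), which encodes the Notch coactivator, ranked 317 with 398 and 266 in replicates 2 and 3. The best summit of cv-2 (crossveinless 2, which encodes a BMP-binding protein) ranked 345, with 334 and 431 in replicates 2 and 3. The list of receptor tyrosine kinase and MAP kinase signalling had 14 hosts of 45 and 24 summits, against 9.29 at average density, or 40.0 per Mb (25.6 to 59.5). Raf and aos led it, followed by S (Star), which acts in the release of EGF receptor ligands and had 3 summits (best rank 319), and vn (vein), which encodes such a ligand (rank 589).

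The list of zinc finger, nuclear receptor and other transcription factors had 28 hosts of 83 and 66 summits, against 25.1 at average density, or 38.2 per Mb (29.6 to 48.7). After Hr3, sbb and tara came crp (cropped, a helix-loop-helix factor gene), whose best summit ranked 334, with 408 in replicate 2 and 304 in replicate 3. Taken from either replicate alone, these 3 lists stood at 31.9 to 43.3 per Mb. Homeodomain factors were less dense, with 9 hosts of 64 and 22 summits, against 14.1 at average density, or 23.1 per Mb (14.5 to 35.0). Their highest summits were of moderate strength and lay in the Hox genes Abd-B (rank 583) and Antp (rank 611, 4 summits), in hth (rank 1245) and in Lim1 (rank 1786).

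Lists of structural and neuronal genes had average or low densities. Ion channels and transmitter receptors stood lowest, with 2 hosts of 63 and 3 summits, against 15.4 at average density, or 2.17 per Mb (0.448 to 6.35). The hosts were Ca-beta, a calcium channel subunit gene with 2 summits (best rank 1877), and nAChRalpha3, an acetylcholine receptor subunit gene (rank 2976). Taken from replicate 3 alone the ion channel density was 4.35 per Mb, and from replicate 2 alone 2.90. Cell adhesion and axon guidance genes held 33 summits in 15 hosts of 89, against 37.3 at average density, led by kirre, Sema1a (rank 828), NetA (rank 906) and sli (rank 1039), genes of axon guidance cues. Cytoskeleton and muscle genes held 8, against 9.06, led by Dys, the dystrophin gene, at rank 471, osp (1143), mbc (1399) and Abl (2064). Kinases and cyclic nucleotide signalling genes held 10, against 10.5, led by for (299), mnb (337), trbl (721) and Eip63E (821).

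Of 26 RNA-binding protein genes 10 (38.5%, 22.4 to 57.5%) were hosts, beside 36.7% of all genes with over 50000 bp of eligible intron. They held 11 summits in 1.43 Mb, or 7.68 per Mb (3.84 to 13.7), against 16.8 at average density. Their highest hosts were shep (rank 687), Rbfox1 (832), how (1321) and fne (1636), which encode RNA-binding regulators. The order of the lists moved with the settings. At a distance of 5000 bp homeodomain factors stood at 29.2 per Mb, beside 29.6 to 34.2 for both signalling lists and the zinc finger list, RNA-binding proteins at 3.66 and kinases and cyclic nucleotide signalling at 6.27. In the stronger part of the list homeodomain factors stood at 3.15 per Mb, below the 5.19 of all eligible intron, and the signalling and zinc finger lists at 15.4 to 21.7. The lists were chosen with results of these data known, so these densities describe them and carry no test.

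**Figure D2:**
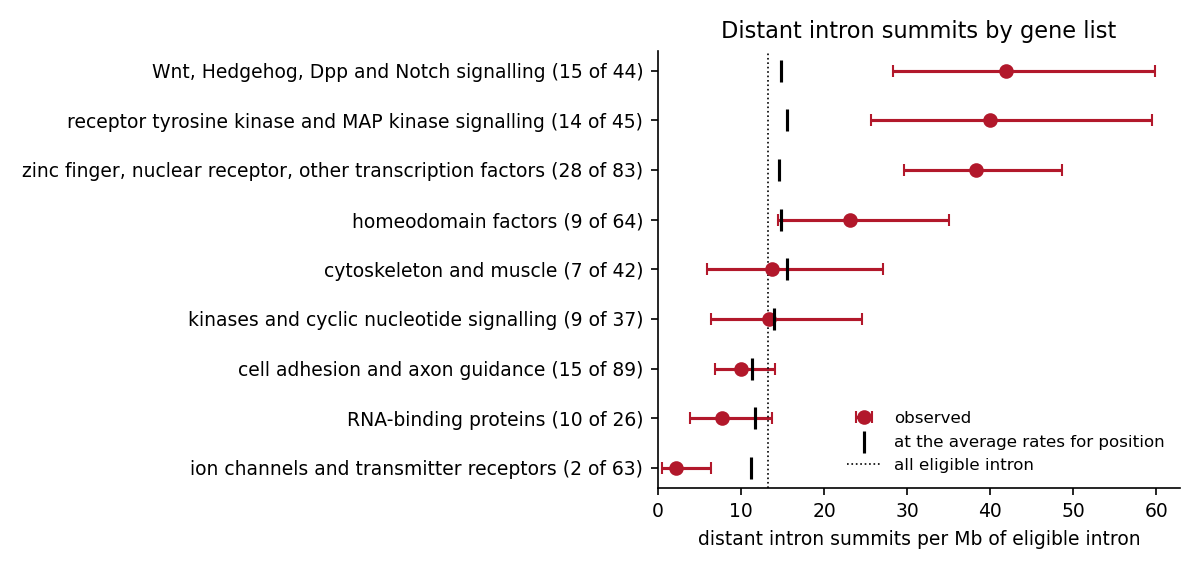
Distant intron summits per Mb of eligible intron for 9 gene lists (red points, exact 95% Poisson intervals), with the density each would have at the average for its distance and intron order (black ticks) and that of all eligible intron (dotted line); numbers after a name are hosts and genes with eligible intron. The 2 signalling lists and the zinc finger list stood at 38.2 to 41.9 per Mb, and ion channels at 2.17 per Mb.

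Distant intron summits were weaker than those nearer to starts. Their median signal in the combined list was 85.9, against 103 at near intron, 101.2 at promoter and 88.3 at intergenic summits. The geometric mean was 0.838 times that of promoter summits (0.806 to 0.872, least squares on the log10 scale with HC3 errors, n = 548 and 1603 summits, Benjamini-Hochberg adjusted p = 4.57e-18). Relative to near intron summits the ratio was 0.856 (0.809 to 0.907, n = 401, adjusted p = 1.41e-07), and relative to intergenic summits it was 0.968 (0.919 to 1.02, n = 366, adjusted p = 0.217). The difference appeared in each replicate's own list, with ratios to promoter summits of 0.843 in replicate 2 and 0.803 in replicate 3 (n = 548 and 533 distant intron summits, adjusted p = 3.29e-14 and 4.67e-17). A peak is no biological replicate, and the p-values speak of these lists rather than of variation among embryos.

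The same shows in the tail of strong sites. Among the 748 strongest summits of the combined list were 84 of 548 distant intron ones (15.3%), against 25.7% of near intron, 29.4% of promoter and 19.9% of intergenic ones. Read along the list, distant intron summits made up 11.2% of ranks 1 to 748 and 17.5% of the next 748. Their share was 23.3% at ranks 1497 to 2244, 21.2% at 2245 to 2993, and 32.0% at ranks 27001 to 30000 of the pooled relaxed list. That last share lies beside the 30.9% of the genome that is eligible intron. Among the members themselves signal had a Spearman correlation of -0.10 with distance to the start and -0.02 with GC content, both across 548 peaks.

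**Figure D3:**
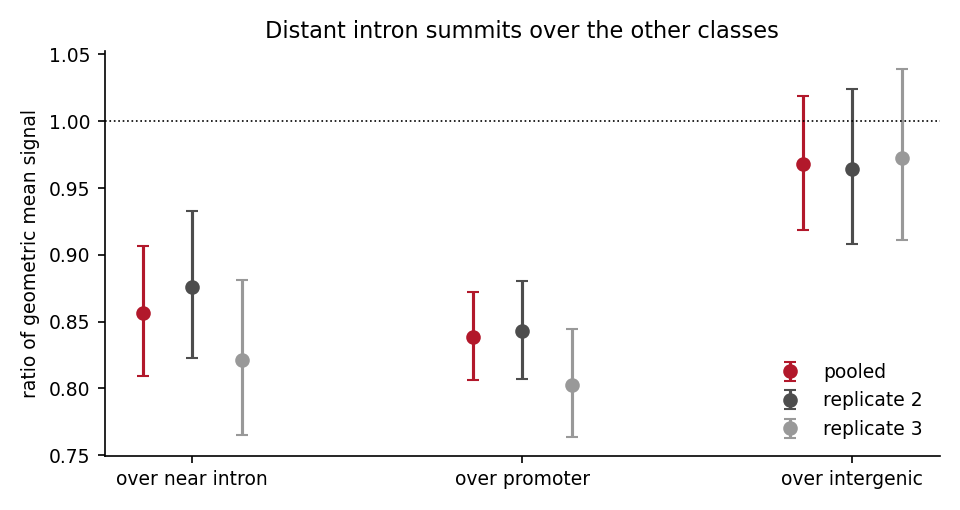
Ratio of the geometric mean deposited signal of distant intron summits over near intron, promoter and intergenic summits, in the combined list (red), replicate 2 (dark grey) and replicate 3 (light grey), with 95% intervals. The ratios to promoter summits lie between 0.803 and 0.843, and all 3 intervals of the ratio to intergenic summits include 1.

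The 2 replicates shared most but not all of these sites. Of 548, 356 (65.0%, 60.9 to 68.8%) were among the strongest 2993 entries of both replicates, where 71.5% of all summits were. A further 105 were so placed only in replicate 2, 80 only in replicate 3 and 7 in neither, and 15 had no entry at all in replicate 3. Promoter summits were shared more often, with 1206 of 1603 (75.2%), a difference of -10.3 percentage points (Fisher's exact test, two-sided, adjusted p = 1.53e-05). The shares of near intron (69.3%) and intergenic summits (68.0%) differed from that of distant intron summits by amounts that did not pass the threshold (Fisher's exact test, adjusted p = 0.245 and 0.354). With 1496 entries taken per replicate the difference from near intron summits was -12.7 points and passed (Fisher's exact test, adjusted p = 6.91e-05). At equal signal the gap to promoter summits was -1.74 points (SE 2.05, n = 2993, linear probability model with HC3 errors, adjusted p = 0.596), a comparison chosen after seeing the data.

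Replicate signals of the 533 with an entry in both correlated at 0.404 by Spearman's method and 0.433 by Pearson's on log10 values, across peaks of a list chosen on the pooled signal. Some members that were strong in the combined list differed widely between replicates. The summit in for (foraging, a cyclic GMP dependent kinase gene) had a signal of 190 in replicate 2 and 16.3 in replicate 3, with ranks of 110 and 6575. The summit in vn had 143 and 13.3, with ranks of 233 and 10936, and the best summit in S had 182 and 23.1, with ranks of 127 and 3277. In each of these replicate 2 was the higher. Signals in replicate 2 were larger in general, with a median of 54.9 at distant intron summits against 34.8 in replicate 3.

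Of the 15 with no entry in replicate 3, the strongest in replicate 2 lay in osp (outspread), with a rank of 357 and a signal of 117 there. Among members with an entry in both replicates the 3 largest gaps in rank were as follows. Rbfox1, a splicing regulator gene, had a summit ranked 378 in replicate 2 and 28947 in replicate 3. A summit in bun (bunched, a transcriptional regulator gene) was at 2666 and 29915, and one in CG14431 at 1868 and 24365. Base composition moved with this split. Mean GC content in the central 100 bp was 34.2% (SD 7.68, n = 105) in members strong only in replicate 2, 30.9% (SD 6.72, n = 80) in those strong only in replicate 3, and 31.6% (SD 7.24, n = 356) in those strong in both. The 15 with no replicate 3 entry averaged 37.5% (SD 5.64). The other summits of the list showed a like split, with 35.9% in those strong only in replicate 2 and 32.3% in those strong in both. Whether composition has a part in the difference between replicates was not tested.

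**Figure D4:**
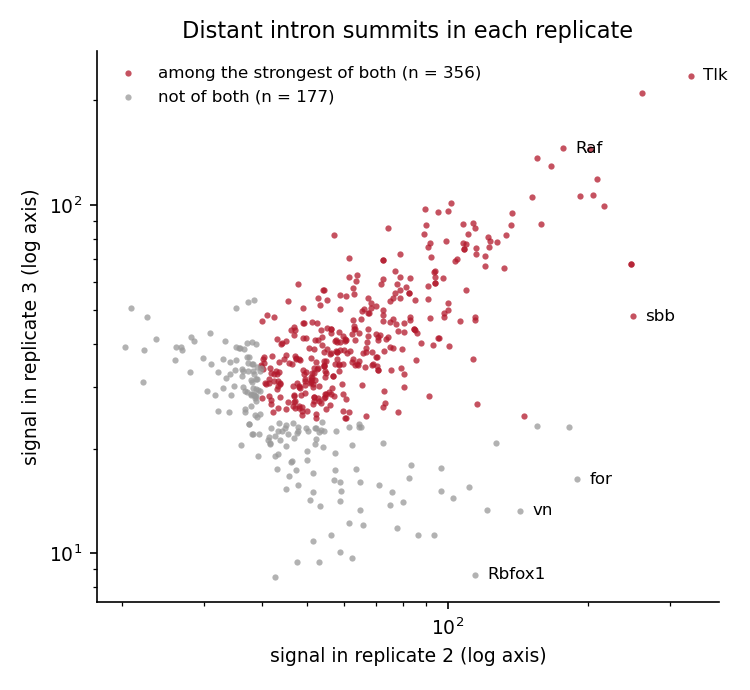
Signal in replicate 3 against signal in replicate 2 for the 533 distant intron summits with an entry in both, on log axes; red points (n = 356) were among the strongest 2993 entries of both replicates. Tlk lies at the top in both, whereas for, vn and Rbfox1 lie far below the other strong sites in replicate 3.

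The DNA at distant intron summits was rich in A and T in a narrow window. The central 100 bp averaged 32.0% G and C (SD 7.30, n = 548), against 43.3% (SD 6.46) in the flanks centred 400 bp to each side, and 480 of 548 summits (87.6%, 84.6 to 90.1%) were lower than their flanks. In steps of 20 bp the mean was lowest, at 30.8%, just left of the summit, and highest, at 45.5%, about 300 bp to the left. It was 41.3% at the outer edge of the 1200 bp examined. Eligible intron cut into 395842 windows of 100 bp averaged 40.2% (SD 9.15), and 21.1% of them were at or below the mean of the summits. Of the printed sequences, which do not reach the flanks, those at Gug, Tlk and JIL-1 were lowest in G and C. The members were not uniform, as 14 of 548 centres were at 50% or more and the range was 16 to 64%.

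Other classes showed the same dip. The difference in central GC content was -1.10 percentage points against promoter summits (HC3 Wald test, n = 548 and 1603, adjusted p = 0.0135), -1.33 against intergenic summits (adjusted p = 0.0178) and 0.384 against near intron summits (adjusted p = 0.422). The first 2 are small beside an SD of 7.30 and missed the threshold in windows of 50 or 200 bp and in replicate 2 alone. Against their own flanks distant intron summits dipped by 11.3 points and promoter summits by 12.4, so there the sign against promoter summits was the other way. In the flanks beyond 300 bp promoter summits were richer in G and C, at 46.0% at the outer edge.

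**Figure D5:**
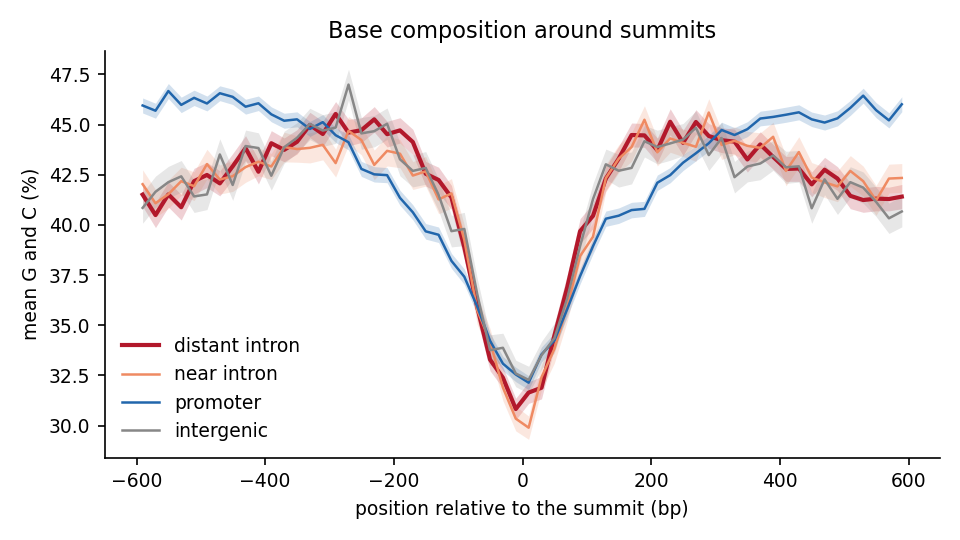
Mean G and C content in 20 bp steps from 600 bp left to 600 bp right of the summit for distant intron, near intron, promoter and intergenic summits, with bands of 1 standard error. All 4 classes dip at the summit, distant intron summits to 30.8%.

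Short words of A and T followed this composition. All 36 words of 6 letters made only of A and T, counted with their reverse complements, were found in more centres than flanks, with ratios of 1.28 to 3.87 and a median of 2.11. The highest was TATTAA, in 116 centres against 31 left and 29 right flanks. Set beside eligible intron windows matched for GC content, 9 of the 36 were more frequent at the summits, with ratios of 0.603 to 1.19. The longest A and T run had a median of 10 bases in centres and 8 in flanks. Its mean of 10.6 bases at the summits lay beside 11.4 in eligible windows of the same GC content.

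Known consensus sequences were searched on both strands of the central 100 bp. The reference was the other 2445 summits, 1603 of them promoter ones. Of 41 with at least 10 matches, 6 (14.6%) differed from the other 2445 summits past the threshold in a model with GC content, and all 6 were less frequent at distant intron summits. Taken from replicate 3 alone, only TATCGATA of these passed, and the other 5 did not, with adjusted p from 0.192 to 0.85 (n = 2993 entries). ATTTAAAA was in 20 of 548 centres, against 187 of 2445 (a difference of -4.55 percentage points, HC3 Wald test, n = 2993, adjusted p = 0.000121). Its share was 8.23% in near intron, 7.92% in promoter and 6.83% in intergenic centres. CGATA, the core sequence bound by the boundary protein BEAF-32, was in 56 of 548 (10.2%), against 377 of 2445 (15.4%) (HC3 Wald test, n = 2993, adjusted p = 0.0106). It was in 18.2% of promoter centres, but in 10.2% of near intron and 7.92% of intergenic ones, and in 10.4% of all eligible windows. TGACNNNGC, a pattern of cap'n'collar type factors, was in 3 of 548 against 63 of 2445 (HC3 Wald test, n = 2993, adjusted p = 0.000382). Its share was 2.74% in near intron, 2.93% in promoter and 1.37% in intergenic centres. It was 2.92% in all eligible windows and 1.67% in those of like GC content.

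The other 3 rested on very few matches. The M1BP core promoter element GGTCACACT was in 0 of 548 centres against 19 of 2445, and the zero allows a share of up to 0.547%. The DNA replication-related element TATCGATA, which contains CGATA, was in 2 against 42, and the Ets pattern, CCGGAA followed by A or G, was in 1 against 36. Of the matches at other summits, promoters held 18 of 19 for GGTCACACT, 41 of 42 for TATCGATA and 22 of 36 for the Ets pattern. Near intron summits held 0, 1 and 3 in the same order. These 3 did not pass with Fisher's exact test, chosen after seeing the data, at adjusted p = 0.159, 0.135 and 0.0917. GGTCACACT and TATCGATA were rare in all eligible windows too, at 0.0445% and 0.212%. The Ets pattern was in 1.49% of all eligible windows and 0.860% of those of like GC content. Its share was 0.183% in distant intron centres and 1.47% at other summits, and 13 left and 6 right flanks held it. No consensus was more frequent at distant intron summits by either test, although 1 was at an unadjusted p under 0.05 in the model. It was CACACACA, in 10 of 548 (1.8%) against 18 of 2445. More flanks held it, 27 left and 25 right. Its share was 1.75% in near intron and 0.437% in promoter centres. It was in 2.63% of all eligible windows and 1.36% of those of like GC content.

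Neither the GATA nor the fork head pattern differed between distant intron and other summits past the threshold. The GATA pattern (GATA after A or T and before A or G) was in 142 of 548 centres (25.9%), against 21.6% of other summits, 16.4% of left and 14.4% of right flanks. It was in 16.9% of all eligible windows and 22.1% of those of like GC content, and its difference from other summits was 3.69 percentage points (-0.334 to 7.72, n = 2993, adjusted p = 0.269). The fork head pattern (TNTTTAC with A or G at N) was in 56 centres (10.2%), against 3.28% of left and 3.65% of right flanks and 6.65% of eligible windows of like GC content. It was in 7.85% of other summits, a difference of 2.42 points (-0.355 to 5.19, n = 2993, adjusted p = 0.299). The 8-letter word most enriched at other summits, TAACGGTA, was in 41 of their centres, 34 of them at promoters and 0 in near introns. It was in 0 of the 548 distant intron centres, where its share in eligible windows was 0.174%. This word was chosen on the other summits as the highest of 10 listed. Of the 10, AATATTAG (1.64% against 1.27%) and ATAATGTA (2.01% against 1.55%) were more frequent at distant intron than at other summits, and the rest less.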

How the data were processed

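The members and gene lists were chosen with earlier results of these data known. Per the sample notes the authors deposited, relaxed lists of 30000 entries were called in dm6 for each replicate and for pooled reads, with 1 control alignment. From these came the optimal list by the irreproducible discovery rate (IDR), which scores the agreement of ranks in both replicates. A place in that list does not mean agreement at each single peak. Of the members, 15 had no entry in replicate 3 and 7 were among the strongest of neither replicate. The sources used here name neither aligner nor caller. The deposited signal has no stated scaling, and classes were compared by it within a list only. Where signals of members are set side by side across lists, a difference in scale is not removed. The deposited −log10 q-value was not used to rank.

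Summits were classed with Ensembl release 115 (transposable elements left out), and sequence came from Release 6, which is dm6. A replicate entry was matched to an optimal peak by 1 bp of overlap, and 20 members share an entry with another. Consensus presence was fitted with GC content as a covariate. All tests were two-sided, with Benjamini-Hochberg adjustment over 3 contrasts or 41 consensus sequences and a threshold of 0.05, and were tested on simulated data. The simulated consensus was a common one, so the model was not tried on consensus sequences with very few matches. Fits used statsmodels 0.14.6 and scipy 1.17.1 under Python 3.11.15 with numpy 2.4.6 and pandas 2.3.3, and plots matplotlib 3.10.9. Named are hosts of the 15 strongest members, the 5 hosts with the most members (ties kept), up to 4 hosts per list, and the summits at the edge and with the 3 largest rank gaps. Words of 8 letters, S, vn and for in the replicate comparison were chosen after their values were seen.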

Additional observations from a re-analysis of the deposited data

Results flagged for a closer look

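Signal at positions that meet the same rule continued below the optimal list. Among the 2993 entries of the pooled relaxed list ranked 2994 to 5986, 640 had their summit in an intron over 2000 bp from a start (21.4%, interval 19.9 to 22.9%), against 159 of 749 (21.2%) at ranks 2245 to 2993 of the optimal list. Taking the 2993 strongest entries of each replicate, 79 distant intron entries of replicate 2 and 102 of replicate 3 met no optimal peak. These entries enter no comparison above.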

How the results depend on the processing

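No paired analysis was possible because there was 1 group, and its replicates were compared only with each other. Signal was lower at distant intron than at promoter and near intron summits under each alternative run for it; the cause of the changes below was not tested. At a distance of 5000 bp there were 271 summits in 187 hosts, and in the stronger part of the list 215 in 173, or 5.19 per Mb. Each replicate alone gave 536 to 540 summits. At 1000 bp the log10 signal difference from intergenic summits was 0.00148, and differences from near intron summits were 0.602 percentage points in sharing between replicates and -0.154 in GC content.

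Sharing differed from promoter summits by -1.74 points and from near intron summits by 3.14 points at equal signal, and from near intron summits by -12.7 points with 1496 entries per replicate (Fisher's exact test, adjusted p = 6.91e-05). With the summits taken from either replicate's own list, sharing meant a place among the strongest entries of the other replicate. The difference from near intron summits was then -8.45 to 1.98 points and from intergenic summits -2.49 to 1.26 points. By Fisher's exact test the adjusted p against near intron summits was 0.0112 for summits taken from replicate 2.

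GC content differed from promoter summits by -0.0654 points in the stronger part of the list, -0.0464 over 200 bp, -1.01 over 50 bp and 1.13 as centre minus flanks, and by -0.928 to -0.637 with each replicate alone. From intergenic summits it differed by -1.10, -0.611, -0.906 and -1.51 under the same 4 settings and by -1.61 to -0.960 with each replicate alone, and from near intron summits by -0.0303 to 0.981 with each replicate alone.

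At 1000 bp 2 consensus sequences were called more frequent, and with each replicate alone 0 to 1. Called less frequent were 2 at 5000 bp, 3 by Fisher's exact test and 1 to 6 with each replicate alone. ATTTAAAA missed the threshold in replicate 3 alone (n = 2993 entries, adjusted p = 0.192), and CGATA did so at 5000 bp, in the stronger part of the list and in replicate 3 alone. TGACNNNGC did so at 1000 and 5000 bp, over 200 bp and in each replicate alone, and GGTCACACT in replicate 3 alone. The Ets pattern missed it at 5000 bp and in replicate 3 alone, and TATCGATA at 5000 bp.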
